A study of Mus musculus with 4 samples.

Results

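RNA-Seq of immortalized brown preadipocytes before adipogenesis was compared between cells infected with Ad-Cre and cells infected with Ad-GFP, to ask which transcripts differ once *Mll4* is deleted but differentiation has not begun. This comparison used 2 of the 4 libraries of the series, the Ad-GFP and the Ad-Cre library of day 0. The other 2, of day 2, were used only to follow the day 0 genes. Both day 0 libraries came from cells of the genotype Mll3-/- Mll4 f/f, isolated from E18.5 embryos on a C57BL/6J background and made immortal by SV40T, the SV40 large T antigen. By this genotype no cell makes functional MLL3. Ad-GFP, an adenovirus that expresses green fluorescent protein, leaves the floxed *Mll4* alleles in place, and the labels call these cells WT although their genotype entry is MLL3-/-. Ad-Cre expresses the Cre recombinase, which excises the floxed exons and gives cells without MLL3 and MLL4. Day 0 was 2 days after confluence, before insulin, T3, indomethacin, dexamethasone and IBMX were added, and day 2 was 2 days into that treatment. Each condition had 1 library, so every ratio below compares 2 libraries and has no replicate check. The labels do not say whether the day 0 and day 2 libraries came from the same infected cultures.

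MLL4 (*Kmt2d*) and MLL3 (*Kmt2c*) are the catalytic subunits of related complexes that place mono- and dimethylation on lysine 4 of histone H3, chiefly at enhancers, the distal elements through which lineage transcription factors (TFs) act. Preadipocytes are mesenchymal precursor cells that hold the machinery to answer adipogenic hormones but do not yet store lipid. Surface proteins such as PDGFRα, CD34 and the Notch-related protein DLK1 mark such precursors, while contractile smooth muscle genes such as *Acta2* mark pericytes, smooth muscle cells and myofibroblasts, to which mesenchymal precursors can be close relatives.

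The values used were the deposited read counts of RefSeq transcripts and their RPKM, reads scaled to exon length and to the library total of mapped reads. Counts summed over all transcripts to 17029623 in the Ad-GFP and 19388026 in the Ad-Cre library of day 0, where transcripts of one gene can share reads, and the denominator of RPKM was 1.13 times larger in Ad-Cre. Of 22463 gene symbols, each represented by its transcript with the most reads, 11313 had an RPKM above 1 in at least 1 day 0 library and were compared. The intervals given are exact binomial 95% intervals of the log2 ratio (Ad-Cre/Ad-GFP), and cover counting error only. *Xist* had 16007 and 17034 reads in Ad-GFP and Ad-Cre cells and the Y-linked *Ddx3y* had none in either, so the libraries did not differ in these transcripts of sex chromosomes. *Mll4* itself (*Kmt2d*, chromosome 15 from 98662100 to 98701614 of mm9) had 6304 Ad-GFP reads and 6316 Ad-Cre reads, a log2 ratio of −0.18. The count covers the whole transcript and cannot show whether the floxed exons 16 to 19 were lost, so each library goes by its label here. For cells infected in this way, the paper itself reports the deletion. Its evidence is a browser view of RNA-Seq over these exons, qRT-PCR of *Mll4* and disruption of the MLL4 complex. *Mll3* (*Kmt2c*), whose alleles are labelled -/- in every library, still had 522 Ad-GFP and 463 Ad-Cre reads (1.80 and 1.41 RPKM, log2 −0.36) and 1224 and 451 at day 2, and these counts cannot show whether the transcript is functional either. The other subunits of the MLL3 and MLL4 complexes were near equal, with 0 of 8 past 2.5-fold and a median log2 ratio of −0.01.

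Most transcripts were at similar levels in the 2 libraries. The median log2 ratio of all compared genes was −0.01, and 80.7% of them lay within 1.5-fold. Beyond 2.5-fold, the cutoff of the study, 207 genes were higher in Ad-Cre cells (1.83% of 11313) and 415 were lower (3.67%), 622 genes in all. These shares of all compared genes, 1.83% and 3.67%, are the background for each list below. The lists were chosen with earlier results of these data known, so a share above the background is a description only and was not tested. The interval lay wholly past the cutoff for 105 of the higher and 250 of the lower genes. The higher genes had a median ratio of 3.67-fold and the lower genes one of 4.25-fold. A ratio past 10-fold was reached by 28 of the higher and 76 of the lower genes. Non-coding transcripts made up 46 of the higher and 51 of the lower genes, against 5.68% of all genes compared. Of these, 33 and 39 were miRNA or small nucleolar and Cajal body RNA entries, and the median read count of the called non-coding entries in the higher library was 5, so most of their ratios rest on few reads. At the edge of the cutoff, *Igdcc4* (210 and 600 reads in Ad-GFP and Ad-Cre cells) lay just inside at 2.52-fold higher and the Notch target *Hes1* (467 and 1314 reads) just outside at 2.48-fold. On the lower side the corresponding genes were *Npnt* (log2 −1.32, 161 and 73 reads), inside, and *Ifitm2* (log2 −1.31, 2117 and 967 reads), outside.

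**Figure D1:**
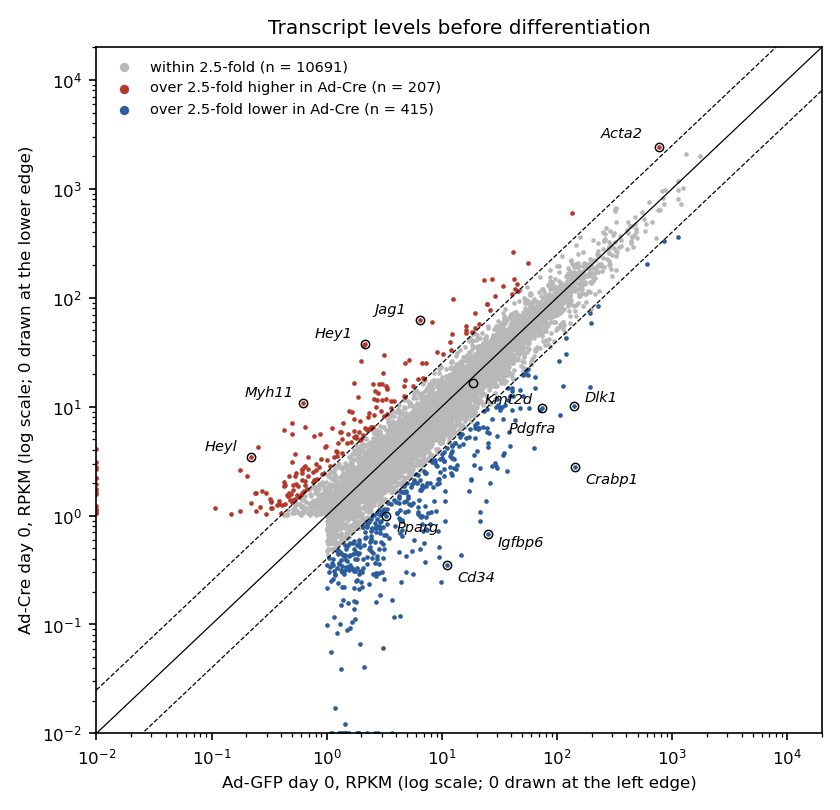
RPKM of each of 11313 genes in the Ad-GFP (horizontal axis) and Ad-Cre (vertical axis) library of day 0, on log scales, 1 point per gene. The solid line is equality and the dashed lines are 2.5-fold; 207 red genes lie above the upper line and 415 blue genes below the lower line, with *Kmt2d* near equality.

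The transcripts that were lowest in Ad-Cre cells had varied products, from secreted and surface proteins to enzymes and proteins of vesicle traffic. Among genes with at least 100 reads in the higher library, *Tspan11*, a tetraspanin, had 105 reads in the Ad-GFP library and 1 in the Ad-Cre library (log2 ratio −6.90, 95% interval −12.21 to −4.39). *Syt13*, a synaptotagmin, had 136 and 3 reads, and *Rab7b*, a small GTPase of late endosomes, 133 and 3. With 3 or fewer reads in Ad-Cre cells, these ratios are known only within wide bounds. *Crabp1*, a cytosolic carrier of retinoic acid, was well counted on both sides, with 1808 Ad-GFP reads and 40 Ad-Cre reads (142 and 2.77 RPKM), 51.3-fold lower (log2 −5.68, −6.17 to −5.23). *Igfbp6*, a secreted protein that binds IGF-II, had 554 and 17 reads, 37.0-fold lower. *Tmem176a* and *Tmem176b*, adjacent genes of membrane proteins, had 270 and 9 and 619 and 35 reads. The 15 lowest also included *Ly6a*, *Cd34*, *Itih2*, *Sned1*, *C1s1*, *Aldh3b1* and *Mfap4*, between 40.0-fold and 19.2-fold lower. Of the 50-base windows of *Ly6a*, 46.4% also matched elsewhere in the genome with at most 2 mismatches, and 27.6% of those of *Aldh3b1*, so their counts may hold reads of related genes.

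**Figure D2:**
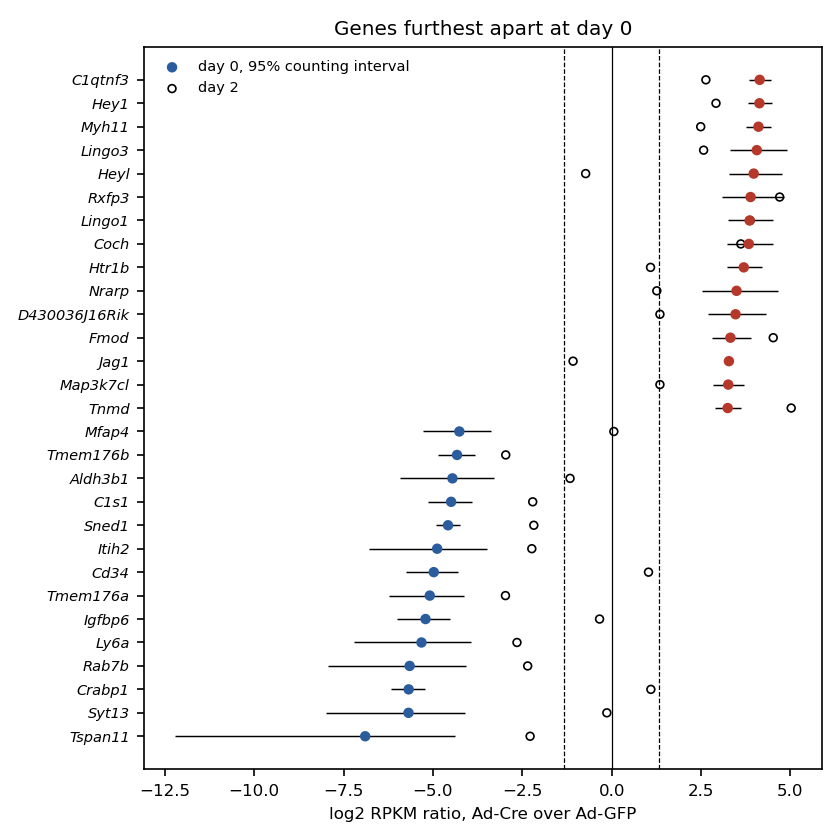
The log2 RPKM ratio (Ad-Cre/Ad-GFP) for genes among the 15 lowest and the 15 highest at day 0 (filled points, with 95% counting intervals) and the same ratio at day 2 (open points); dashed lines mark 2.5-fold. The day 0 ratios run from −6.90 for *Tspan11* to 4.14 for *C1qtnf3*, and *Jag1* and *Heyl* are below 0 at day 2.

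Markers of preadipocytes and mesenchymal precursors were split. Of 15 compared, 5 were over 2.5-fold lower (33.3%, against 3.67% of all genes), 1 was higher and 9 were within the cutoff, and their median log2 ratio was −0.29. *Dlk1* (preadipocyte factor 1, chromosome 12 from 110691033 to 110701546), which holds preadipocytes in the undifferentiated state, had 10525 reads in the Ad-GFP library and 859 in the Ad-Cre library (141 and 10.1 RPKM), 13.9-fold lower (log2 −3.80, −3.90 to −3.70). *Pdgfra*, the receptor that marks adipocyte progenitors, had 8315 and 1246 reads (73.6 and 9.72 RPKM), 7.57-fold lower. *Cd34*, a sialomucin of stromal progenitors, had 500 and 18 reads, and *Ly6a* (SCA1) 141 and 4. *Vcam1*, a cell adhesion receptor, had 1860 and 617 reads (log2 −1.77). The markers were thus not lower as a set: *Pdgfrb*, the other PDGF receptor, had 8371 and 13013 reads (log2 0.45), *Itgb1* (CD29) 10979 and 16941 (log2 0.44), and *Col15a1* 233 and 673 (log2 1.35).

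Most TFs of adipogenesis were within the cutoff before induction. Of 21 compared, 2 were over 2.5-fold lower (9.52%, against 3.67% of all genes) and none was higher. The log2 ratio was below 0 for 16 and above 0 for 5 of them, with a median of −0.43. *Pparg*, the nuclear receptor that directs fat cell differentiation, had 105 Ad-GFP reads and 36 Ad-Cre reads (3.29 and 0.994 RPKM), 3.31-fold lower (log2 −1.73, −2.31 to −1.17). *Zfp423*, a zinc-finger factor that commits cells to the preadipocyte state, had 246 and 66 reads, 4.23-fold lower (log2 −2.08, −2.49 to −1.68). *Cebpa*, which acts with PPARγ, had 818 and 381 reads (log2 −1.28), just within the cutoff. *Ebf2*, an early B-cell factor of brown preadipocytes, had 724 and 404 (log2 −1.02) and *Cebpb*, which acts early in adipogenesis, 2293 and 1385 (log2 −0.91). The most counted TFs of the list differed less. *Rxra*, the heterodimer partner of PPARγ, had 3291 and 2426 reads (log2 −0.62) and *Srebf1*, a regulator of lipid synthesis, 3600 and 4017 (log2 −0.02). Genes of fat cell function were not separated at this stage: of 40 such genes 20 were compared, 0 were past the cutoff in either direction, and the median log2 ratio was 0.01. *Scd2*, a fatty acid desaturase, had 54055 and 43844 reads and *Fasn*, the fatty acid synthase, 14360 and 25564. *Fabp4*, a fatty acid binding protein of fat cells, had 46 and 53 reads.

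Secreted regulators of growth and signalling were among the lower genes. Of 13 genes of the IGF system, 4 were lower (30.8%, against 3.67% of all genes) and 0 higher: besides *Igfbp6* these were *Igfbp3* (69 and 5 reads), *Igfbp5* (1917 and 409 reads, log2 −2.41) and the ligand *Igf1* (156 and 49 reads, log2 −1.85), while *Igf2r* and *Igfbp7* had log2 ratios of −0.52 and 0.06. Of 26 genes of the Wnt pathway, 6 were lower (23.1%) and 1 higher (3.85%, against 1.83% of all genes). The lower ones were the secreted antagonists *Sfrp1* (331 and 21 reads, 17.9-fold lower) and *Sfrp4* (71 and 8), the ligands *Wnt10b* (66 and 6), *Wnt5b* (80 and 14) and *Wnt9a* (96 and 36), and *Rspo2* (1722 and 352), whose product strengthens Wnt signals. The higher one was the receptor *Fzd5* (433 and 1522 reads). The ligand *Wnt5a* (1450 and 3414 reads, log2 1.05) and *Rspo3* (247 and 566, log2 1.01) lay on the high side within the cutoff and the antagonist *Dkk3* (148 and 155) near equality, and with 11 of the 26 above 0 the median log2 ratio was −0.10. Of 18 chemokines, cytokines and their receptors, 5 were lower (27.8%) and 1 higher (5.56%). *Cxcl12*, the stromal ligand of CXCR4, had 22320 and 9184 reads (229 and 83.0 RPKM, log2 −1.46), *Cx3cl1* 2590 and 589 reads, *Il1rn*, the interleukin-1 receptor antagonist, 447 and 66, and *Ccl9* 61 and 1. Of 32 semaphorins, ephrins, netrins, slits and their receptors, cues for cell guidance, 7 were lower (21.9%) and 0 higher, among them the receptor *Ephb2* (1593 and 482 reads, log2 −1.91) and the ligands *Sema3b* (97 and 21), *Sema3f* (155 and 47) and *Ntn1* (288 and 97). Of 8 retinoid genes compared, 3 were lower (37.5%), among them *Crabp1* and *Crabp2* (21 and 6 reads), and *Cyp26b1*, an enzyme that breaks down retinoic acid, was higher (53 and 193 reads, 3.21-fold).

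Imprinted genes of growth control included some of the most counted lower genes. Of 18 compared, 3 were lower (16.7%, against 3.67% of all genes) and none higher, and the median log2 ratio was −0.54. Besides *Dlk1*, *Peg3*, a zinc-finger protein of the paternal allele, had 3835 reads in the Ad-GFP library and 464 in the Ad-Cre library (33.7 and 3.59 RPKM, 9.38-fold lower), and *Cdkn1c*, the CDK inhibitor p57, 861 and 219 reads (4.46-fold lower). *Peg10* had 24599 and 13914 reads (2.01-fold lower) and *Gnas* 16956 and 17849 (log2 −0.11). The log2 ratio was below 0 for 14 and above 0 for 4 of the 18, so the direction was not shared by all imprinted genes.

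Genes of the TGF-β and BMP pathways moved in both directions. Of 37 compared, 6 were higher (16.2%, against 1.83% of all genes) and 3 lower (8.11%, against 3.67%), with a median log2 ratio of 0.31. *Ltbp2*, a latent TGF-β binding protein of the matrix, had 3090 Ad-GFP reads and 19237 Ad-Cre reads (27.2 and 149 RPKM), 5.49-fold higher (log2 2.46, 2.40 to 2.51). The ligands *Inhba* (325 and 1398 reads), *Bmp4* (94 and 451) and *Tgfb3* (1119 and 3482) were higher, as was the BMP antagonist *Nog* (8 and 61). Another BMP antagonist, *Grem1*, was lower with 828 and 92 reads (10.2-fold), and so were the TGF-β induced matrix protein *Tgfbi* (1791 and 226, 8.99-fold) and the co-receptor *Tgfbr3* (1413 and 343). The 2 BMP antagonists thus lay on opposite sides. *Fstl1*, the most counted member of the list, had 26810 and 31941 reads (log2 0.07).

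Genes of the extracellular matrix differed in both directions. Of 34 glycoproteins and proteoglycans, 9 were lower (26.5%, against 3.67% of all genes) and 5 higher (14.7%, against 1.83%). *Efemp1* (fibulin-3) had 3728 reads in the Ad-GFP library and 332 in the Ad-Cre library (106 and 8.36 RPKM), 12.7-fold lower. The elastic fibre proteins *Mfap4* (186 and 11 reads) and *Emilin1* (6145 and 1790) and the laminin chain *Lama2* (340 and 57) were also lower. In contrast, *Thbs1*, thrombospondin-1, had 13362 and 67311 reads (134 and 595 RPKM, log2 2.15), *Fbln5*, an elastic fibre protein, 4281 and 16797, the laminin chain *Lama4* 1673 and 6520, and the small proteoglycans *Aspn* and *Fmod* 330 and 2745 and 32 and 363. Members of the same families, laminin chains and elastic fibre proteins, hence stood on both sides. Of 21 collagens, 4 were higher (19.05%, against 1.83% of all genes) and 1 lower (4.76%, near the 3.67% of all genes). The median log2 ratio of the 21 was 0.69. Among the higher ones, *Col8a2* had 196 and 1167 reads, *Col18a1* 373 and 1246, and *Col2a1* 196 and 615. The lower one, *Col7a1*, of anchoring fibrils, had 1443 and 352. The major fibrillar chains *Col1a1* (100715 and 92543 reads) and *Col3a1* (27432 and 44313) were within the cutoff. Of 26 matrix proteases and inhibitors, 5 were lower (19.2%) and 2 higher (7.69%), with *Plat*, the tissue plasminogen activator, at 1873 and 372 reads and *Serpine2*, an inhibitor of serine proteases, at 115 and 623. Others of their kind differed from them: the inhibitor *Serping1* was lower (43 and 6 reads, 8.13-fold) and the activator *Plau* near equal (845 and 981, log2 0.03).

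The highest genes in Ad-Cre cells included components and targets of Notch signalling, in which a ligand on 1 cell triggers cleavage of a receptor on its neighbour by proteases of that neighbour, and the freed receptor domain acts with RBPJ on target genes. Of 12 genes of the pathway compared, 4 were higher (33.3%, against 1.83% of all genes) and 0 lower, and the median ratio was near 2-fold. The ligand *Jag1* (chromosome 2 from 136907192 to 136942380) had 607 Ad-GFP reads and 6689 Ad-Cre reads (6.43 and 62.4 RPKM), 9.71-fold higher (log2 3.28, 3.16 to 3.40). The target *Hey1*, a transcriptional repressor, had 81 and 1613 reads (2.14 and 37.5 RPKM), 17.6-fold higher (log2 4.13, 3.81 to 4.47). Its relative *Heyl* had 17 and 303 reads, 15.7-fold higher, and *Nrarp*, a feedback inhibitor of Notch, 9 and 115 reads, 11.3-fold higher. Ligand and targets were thus high in the same library. The receptor *Notch1* (2863 and 7881 reads, log2 1.28) and *Hes1* (log2 1.31) lay just within the cutoff, and *Notch2* did not differ in level to that extent (4338 and 4674 reads, log2 −0.07). No 50-base window of *Hey1*, *Heyl*, *Nrarp* or *Jag1* matched elsewhere in the genome.

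Contractile genes of smooth muscle and myofibroblasts were on the higher side. Of 16 compared, 6 were past the cutoff (37.5%, against 1.83% of all genes) and none was lower, with a median log2 ratio of 1.04. *Acta2*, smooth muscle α-actin, had 23576 reads in the Ad-GFP library and 84322 in the Ad-Cre library (770.1 and 2428 RPKM), 3.15-fold higher (log2 1.66, 1.64 to 1.68). *Actg2*, enteric γ-actin, had 943 and 6778 reads (6.34-fold), and *Myh11*, the smooth muscle myosin heavy chain, 71 and 1387 (0.626 and 10.8 RPKM, 17.2-fold). *Cnn1*, calponin, had 983 and 4055 reads (log2 1.86), and the matricellular genes *Ccn1* and *Ccn2* 1943 and 8191 and 958 and 6782. *Tagln* and *Myl9*, also contractile, had log2 ratios of 1.04 each, and *Lox*, which crosslinks collagen, one of 0.34. The striated muscle actins *Acta1* (453 and 1356 reads, log2 1.40) and *Actc1* (243 and 823, log2 1.58) were higher as well. Between 5.17% and 8.70% of the windows of these 4 actin genes matched elsewhere with at most 2 mismatches. Skeletal muscle lineage markers as a list were split: of 18, 5 were compared, with 2 higher and 2 lower. The higher ones were *Acta1* and *Actc1*, and the lower ones *Met* (380 and 108 reads) and *Cdon* (2178 and 882). Of 10 pericyte markers 4 were compared, with 2 higher (50%, against 1.83% of all genes) and 1 lower (25%, against 3.67%). *Mcam* (624 and 5437 reads, 7.68-fold) and *Cspg4* (781 and 2410) were higher and *Anpep* was lower (286 and 91). The summed RPKM of all 10 markers was 31.9 and 123. The pericyte genes *Kcnj8*, *Abcc9* and *Higd1b* had no read in either library, and *Rgs5* had 5 and 6. In bulk RNA, more cells of a type and more RNA per cell cannot be told apart.

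The promoters of *Acta2*, *Acta1* and *Actc1* are shown because these actin genes were higher together. A letter pattern, the CArG box bound by serum response factor, is also known from muscle actin promoters. No promoter sequence was available for *Actg2*, which was higher as well. The 250 bases before the RefSeq start of each gene (GRCm38.p6, 5′ to 3′ on the strand of the gene) are given in lower case, with CArG boxes and TATA boxes (TATAAA) in capitals. The windows are those of *Acta2* (chr19:34255374-34255623, minus strand), *Acta1* (chr8:123894776-123895025, minus strand) and *Actc1* (chr2:114052876-114053125, minus strand).
Acta2: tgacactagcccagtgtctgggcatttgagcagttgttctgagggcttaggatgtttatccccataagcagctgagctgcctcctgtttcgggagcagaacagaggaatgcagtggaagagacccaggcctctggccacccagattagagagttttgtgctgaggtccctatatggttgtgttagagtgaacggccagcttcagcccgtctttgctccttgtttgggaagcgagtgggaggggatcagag
Acta1: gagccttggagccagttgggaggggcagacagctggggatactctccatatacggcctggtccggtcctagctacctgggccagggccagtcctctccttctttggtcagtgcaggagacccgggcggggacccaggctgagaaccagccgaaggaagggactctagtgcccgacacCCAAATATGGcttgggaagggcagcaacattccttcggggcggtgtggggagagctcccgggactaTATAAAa
Actc1: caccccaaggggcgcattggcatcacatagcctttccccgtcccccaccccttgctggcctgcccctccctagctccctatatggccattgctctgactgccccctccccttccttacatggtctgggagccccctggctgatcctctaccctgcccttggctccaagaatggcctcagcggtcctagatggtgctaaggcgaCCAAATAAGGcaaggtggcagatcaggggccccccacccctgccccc
*Acta1* holds a CArG box starting 73 bases before its start and TATAAA 7 bases before it, and *Actc1* a CArG box 47 bases before its start. A CArG box is CC, then 6 letters that are each A or T, then GG, and only exact matches are in capitals. Stretches with 1 letter off, looked for after the exact matches were seen, were ccctatatgg and ccttgtttgg in the *Acta2* window, 84 and 34 bases before its start, and ccctatatgg in *Actc1* at 175 bases, among 3 such stretches there and 2 in *Acta1*. The *Acta2* window thus has no exact CArG box and no TATAAA but holds near matches to the CArG box. The letters alone do not tell whether serum response factor binds such stretches. By letters, near matches are common: 16.2% of all windows, 24.1% of those of higher and 13.0% of those of lower genes had a match with at most 1 letter off. Over windows from 250 bases before to 50 bases after the start, available for 78.5% of the compared genes, a CArG box on either strand was found in 1.36% of 11350 windows, in 3.70% of the 162 windows of higher genes and in 1.60% of the 376 windows of lower genes. A CArG box can itself hold TATAAA, which was found in 6.64%, 13.6% and 10.1% of the same windows. These shares describe the letters in the windows and were not tested.

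The promoters of *Nrarp*, the Notch target that had a window, and of *Crabp1*, the lower gene with the most reads among the 15 lowest, are shown in the same way (chr2:25180508-25180757, plus strand; chr9:54764498-54764747, plus strand).
Nrarp: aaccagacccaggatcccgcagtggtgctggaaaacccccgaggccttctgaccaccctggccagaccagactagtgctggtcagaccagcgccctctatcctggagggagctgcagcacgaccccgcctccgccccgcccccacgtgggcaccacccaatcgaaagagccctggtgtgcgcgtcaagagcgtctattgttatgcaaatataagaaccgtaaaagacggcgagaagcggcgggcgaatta
Crabp1: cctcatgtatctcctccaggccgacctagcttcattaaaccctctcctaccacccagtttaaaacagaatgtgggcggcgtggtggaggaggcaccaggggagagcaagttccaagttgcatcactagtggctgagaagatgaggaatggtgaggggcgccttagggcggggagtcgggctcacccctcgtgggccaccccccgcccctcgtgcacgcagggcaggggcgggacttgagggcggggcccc
Neither window held a CArG box or TATAAA before the start. The core letters bound by RBPJ, TGGGAA on either strand, were absent from the *Nrarp* window and were found in 22.8% of all windows, 22.2% of those of higher genes and 25.5% of those of lower genes. The AP-1 site TGACTCA, on either strand, was found in 3.52%, 2.47% and 6.38%. Absence of the letters says nothing about binding of a factor.

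Other genes at the top of the higher list had varied roles. *C1qtnf3*, a secreted C1q and TNF related protein, had 92 Ad-GFP reads and 1841 Ad-Cre reads (2.10 and 37.1 RPKM), 17.6-fold higher. The neuronal surface proteins *Lingo1* and *Lingo3* had 24 and 395 and 15 and 284 reads, the receptors *Rxfp3* and *Htr1b* 13 and 218 and 40 and 588, and *Tnmd*, tenomodulin of tendon, 71 and 764. *Coch*, a secreted protein of the inner ear matrix, and *Map3k7cl* had 23 and 373 and 49 and 533 reads. *D430036J16Rik* (15 and 188 reads) overlaps an exon of *Htr1b* on the opposite strand, and the counting is not stated to use strand, so their reads cannot be told apart.

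TFs lay in both directions. The TFs counted here are those whose symbols matched a fixed pattern, which leaves out some, such as *Zfp423*. Of 285 such TFs compared, 8 were higher (2.81%, against 1.83% of all genes) and 13 lower (4.56%, against 3.67%), with a median log2 ratio of −0.02. Besides *Hey1* and *Heyl*, the higher ones were *Tox* (54 and 355 reads), *Npas4* (131 and 557), *Lhx2* (32 and 117), *Id4* (49 and 171), *Lhx9* (97 and 334) and *Dmrta2* (83 and 272). The lower ones included *Osr2*, an odd-skipped factor of mesenchyme (737 and 141, 5.93-fold), *Meox1*, a homeobox gene of somites (192 and 47, 4.63-fold), *Sox9*, the factor of cartilage (688 and 202, 3.86-fold), *Hoxd8* (75 and 22), *Gata6* (232 and 81), *Maf* (154 and 54), *Hoxa2* (155 and 60) and *Scx*, a tendon factor (58 and 23).

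Genes of cell division and reference genes stayed within the cutoff, while some interferon, p53 and NRF2 genes were past it. None of 30 genes of replication and mitosis was past 2.5-fold, with a median log2 ratio of −0.07; the proliferation marker *Mki67* had 8924 and 7896 reads. Of 18 immediate early and AP-1 genes 0 were past it, although their median was 0.59, above that of all genes. None of 12 commonly used reference genes was past the cutoff. Of 32 interferon-stimulated genes, 2 were higher (6.25%, against 1.83% of all genes), *Oas1a* (14 and 70 reads) and *Bst2* (571 and 1799), and the median was 0.38; 88.9% of the windows of *Oas1a* matched elsewhere, so its value is uncertain. Of CDK inhibitors and p53 targets, 3 of 21 were higher (14.3%, against 1.83% of all genes), among them *Cdkn1a*, p21 (1347 and 3984 reads, log2 1.38), and *Fas* (32 and 135), and *Cdkn1c* was lower. Of 17 NRF2 and glutathione genes, 3 were lower (17.6%, against 3.67% of all genes), with *Gsta4* at 108 and 33 reads. Lists of endothelial, epithelial, macrophage and blood, and neuronal and Schwann cell markers each had 1 gene above 1 RPKM and none past the cutoff. No read in either library was found for 1 of 12 endothelial and 5 of 12 epithelial markers, among them *Cldn5* and *Cdh1*. The same held for 4 of 11 macrophage and blood and 3 of 12 neuronal and Schwann cell markers, among them *Ptprc* and *Sox10*.

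**Figure D3:**
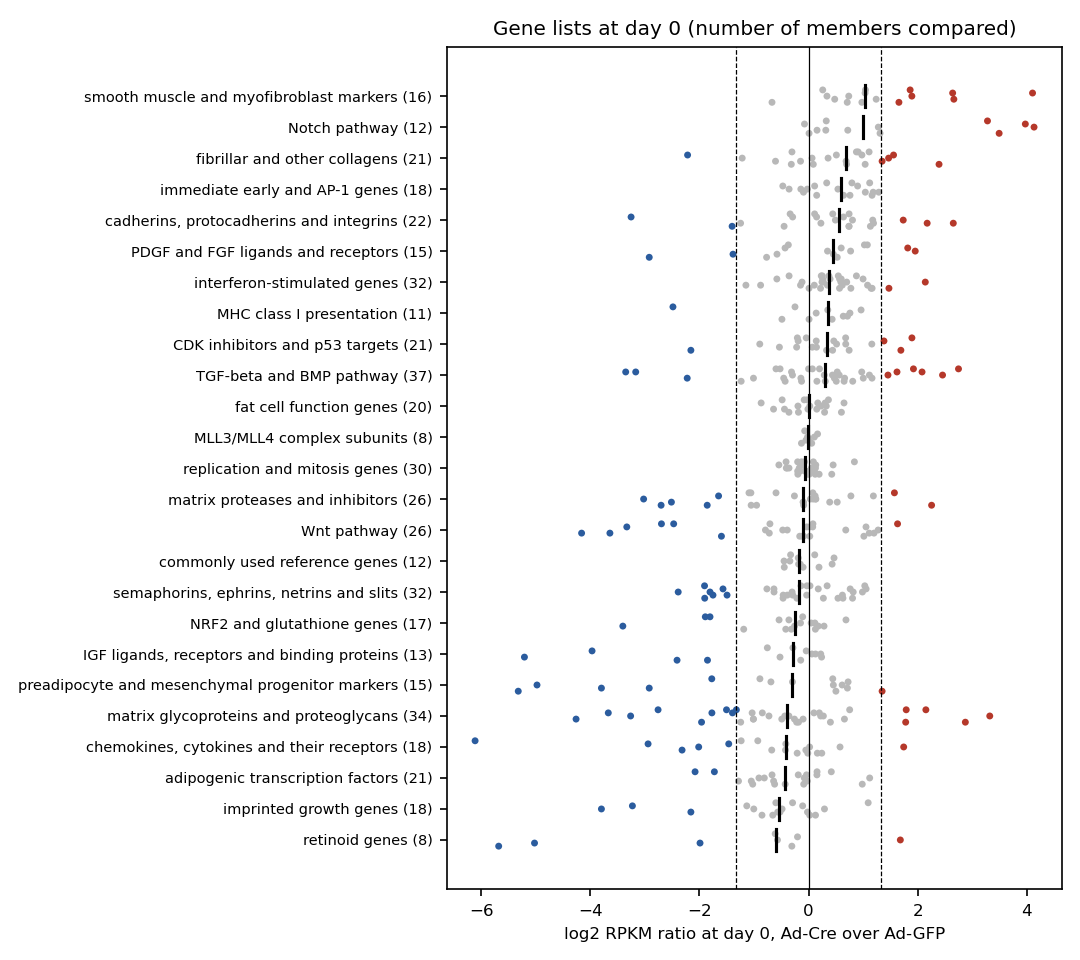
The day 0 log2 RPKM ratio (Ad-Cre/Ad-GFP) of each compared member of the lists with at least 8 such members; grey points are within 2.5-fold (dashed lines) and black bars are medians. Medians run from −0.59 for the retinoid genes to 1.04 for smooth muscle and myofibroblast markers, and lists such as matrix glycoproteins hold members on both sides.

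Some of the changed genes lay side by side in the genome. Among compared genes placed in chromosomal order, 44 of 11292 pairs of adjacent genes were both past the cutoff in the same direction and 10 pairs in opposite directions. Of the 828 neighbours of lower genes 8.70% were lower as well, against 3.67% of all genes, and of the 408 neighbours of higher genes 3.92% were higher, against 1.83%. Of the 44 pairs, 11 overlap in RefSeq coordinates. Most of the higher pairs are among them: *Pisd-ps1* and *Sfi1*, *Ltbp2* and *D030025P21Rik*, *Lratd2* and *9930014A18Rik*, *Lims2* and *Gpr17*, and *Htr1b* and *D430036J16Rik*. The 3.92% counts these pairs, which can share reads, and was not recomputed without them, so it does not show that higher genes lie together. Lower neighbours included the S100 genes *S100a16*, *S100a3*, *S100a4* and *S100a6* with *Sprr1a*, the complement genes *C1rl*, *C1ra* and *C1s1*, *Tmem176a* and *Tmem176b*, and *Mgp*, *Arhgdib* and *Eps8*. Higher neighbours included *Acta2* and *Fas*, and *Lingo1* and *Cspg4*. These examples were chosen after their values were seen. *Tmem176a* and *Tmem176b*, *Iqck* and *Gprc5b*, *Htr1b* and *D430036J16Rik*, *Peg3* and *Peg3os*, and *Ltbp2* and *D030025P21Rik* are among the overlapping pairs, and *Sned1* shares exon sequence with its lower neighbour *Mterf4* in the mm9 annotation. Without strand, reads of such pairs cannot be told apart where they overlap.

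The day 0 differences were followed in the day 2 libraries. Of the 207 genes higher at day 0, 116 (56.0%) were past 2.5-fold higher at day 2 as well, against 8.92% of all 11313 genes, and 10 were past it in the other direction. Of the 415 genes lower at day 0, 101 (24.3%) were also lower at day 2, against 8.77% of all genes, while 68 (16.4%) were over 2.5-fold higher, against 8.92%. These genes made up 11.5% of the 1009 genes higher and 10.2% of the 992 genes lower at day 2. Restricted to genes above 1 RPKM in a day 2 library, 83 of 137 higher genes remained higher (60.6%, background 8.07%) and 71 of 256 lower genes remained lower (27.7%, background 8.71%), with 43 of the latter past the cutoff in the other direction. The median RPKM of the 415 lower genes was 4.30 (Ad-GFP) and 0.894 (Ad-Cre) at day 0 and 1.28 and 1.25 at day 2, so the Ad-GFP level was itself lower at day 2. For the 207 higher genes it was 1.10 and 4.73 at day 0 and 0.713 and 2.03 at day 2.

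**Figure D4:**
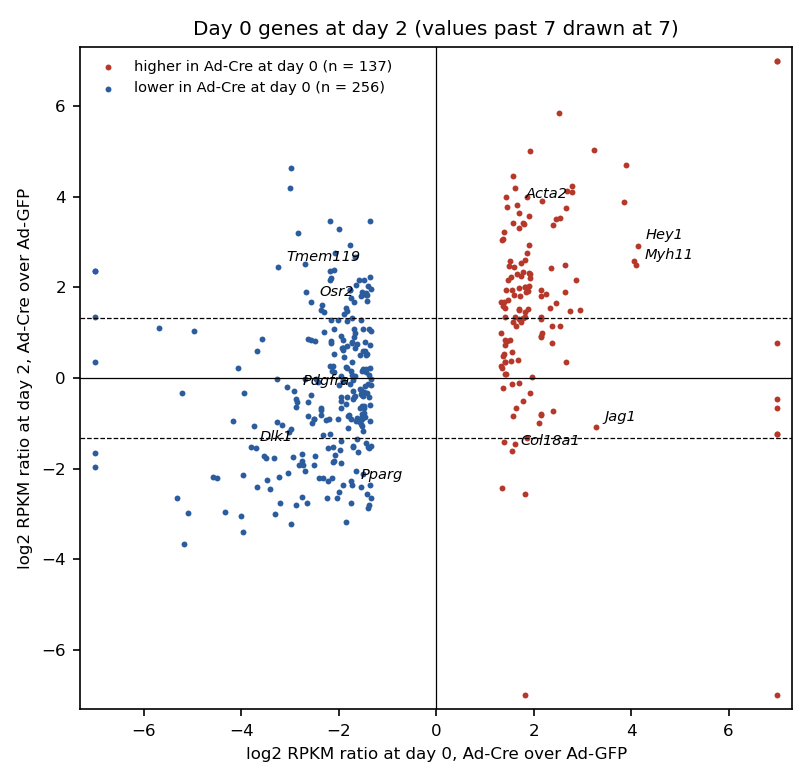
The log2 RPKM ratio (Ad-Cre/Ad-GFP) at day 0 (horizontal axis) and day 2 (vertical axis) of the day 0 genes that were above 1 RPKM in a day 2 library; values past 7 are drawn at 7 and dashed lines mark 2.5-fold at day 2. Of 137 red genes 83 lie above the upper line, and of 256 blue genes 71 lie below the lower and 43 above the upper line.

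Genes that differed at both days in the same direction, with at least 100 reads in the higher library each day, numbered 56 higher and 55 lower. The lower ones furthest apart at both days were *Ly6a* (141 and 4 reads at day 0, 104 and 13 at day 2), *Tmem176a*, *Tmem176b*, *Cldn15* (155 and 11 reads at day 0, 167 and 16 at day 2), *Apbb1ip* (321 and 37, then 478 and 47), *Kank1* (265 and 38, then 1002 and 84), *Rnf144a*, *Arhgap36*, *Aoc3* and *Gprc5b*. Among the higher ones were *Rxfp3* (13 and 218 reads at day 0, 13 and 265 at day 2), *Lingo1*, *Hey1* (130 and 771 reads at day 2), *Kif1a*, *Penk* (13 and 102, then 31 and 460), *Tox* and *Uchl1*. *Pparg*, which had few reads at day 0, had 1645 and 252 reads at day 2, a log2 ratio of −2.36. The contractile genes *Acta2* (714 and 7928 reads, 14.2-fold higher) and *Cnn1* (35 and 438) had larger ratios at day 2 than at day 0, at lower levels in both kinds of cell. *Myh11* and *Ccn2* went the other way, from log2 ratios of 4.11 and 2.64 at day 0 to 2.49 and 1.90 at day 2.

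Other day 0 differences were not present at day 2 in the same form. *Pdgfra* had 1152 and 740 reads at day 2 (7.63 and 6.25 RPKM, log2 −0.29), the Ad-GFP level having come down to that of Ad-Cre cells. *Crabp1* had 31 and 52 reads and *Cd34* 88 and 141 at day 2, both low in Ad-GFP cells by then. Their log2 ratios were then 1.10 and 1.03, above 0 but within the cutoff. In Ad-Cre cells *Cd34* went from 0.352 RPKM at day 0 to 2.98 at day 2, and *Crabp1* from 2.77 to 3.89. *Jag1* had 2380 reads in the Ad-GFP library and 883 in the Ad-Cre library at day 2 (log2 −1.08), which is below 0 but within the cutoff, and *Notch1* had 9784 and 2980 (log2 −1.36), while *Hey1* and *Hes1* had log2 ratios of 2.92 and 2.19 and *Heyl*, below 1 RPKM in both libraries, one of −0.73. At day 2 the receptor *Notch1* was thus just past the cutoff on the lower side and *Hey1* and *Hes1* past it on the higher side. The interval of *Notch1*, −1.42 to −1.31, spans the cutoff of −1.32, so that call is not firm.

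**Figure D5:**
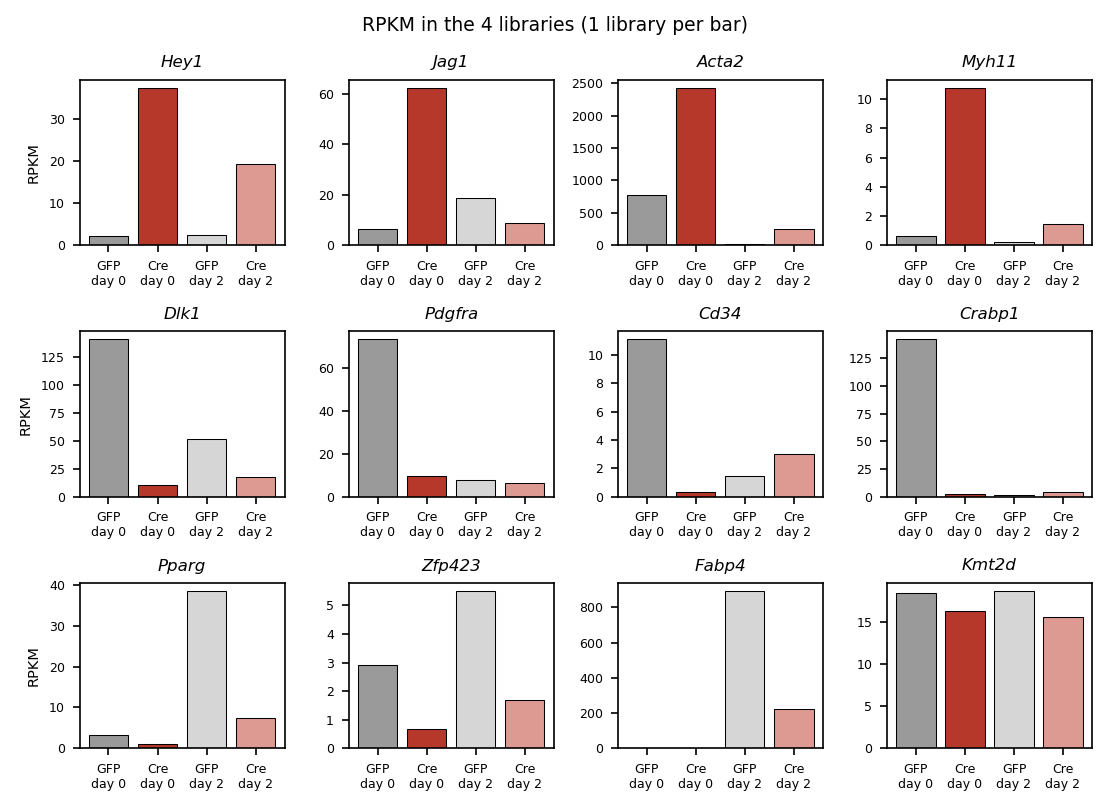
RPKM of 12 genes in the 4 libraries, 1 bar per library, each axis starting at 0. *Hey1*, *Acta2* and *Myh11* are highest in Ad-Cre cells at day 0; *Dlk1*, *Pdgfra*, *Cd34* and *Crabp1* are highest in Ad-GFP cells at day 0; *Pparg*, *Zfp423* and *Fabp4* are highest in Ad-GFP cells at day 2; and *Kmt2d* is near level.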

How the data were processed

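RNA-Seq libraries of Ad-GFP and Ad-Cre cells were grouped by their labels, with 1 library for each day and virus. The authors aligned 50-base reads to mm9 and collected those on exons of RefSeq transcripts. The submitters' processing notes also name bedtools 2.16 and SICER 1.1. The treatment of reads with several matches is not given in the sources used here. The authors deposited, for each of 29082 transcripts, the raw read count. The authors deposited beside it the RPKM, the count divided by exon length and mapped reads.

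From these values, 97.8% of transcripts were given symbols from a RefSeq table (GRCm38.p6, used for names, gene order and promoters), and each symbol was represented by the transcript with most reads over the 4 libraries. Genes above 1 RPKM in a day 0 library were compared, and those past 2.5-fold were counted. Conditions without replicates allow no test, and none was made. Clopper-Pearson 95% intervals of the read ratio were computed with scipy 1.17.1. Limits of depth are those of counting: a gene with 3 or fewer reads in a library has a wide interval, and one with no read an open-ended ratio. Genes were named by rule: *Kmt2d* and *Kmt2c*; the 15 highest and 15 lowest genes with at least 100 reads whose interval lay past the cutoff; in each list up to 4 genes past the cutoff with at least 30 reads and the 2 with most reads; 10 genes per direction past it at both days; and up to 10 TFs per direction. Other genes named were chosen after their values were seen. Some genes that met the rule are not reported here. The members and lists were chosen with earlier results of these data known.

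For an alternative scaling, TMM factors came from edgeR 4.0.16 (R 4.3.3), without an edgeR test. Positions came from GENCODE vM1 on mm9, and 50-base windows of named transcripts, every 25 bases, were matched to mm9 with BLAST+ 2.17.0. The computation of ratios and intervals was checked on simulated Poisson counts with known folds. Such counts hold counting error only and no variation between libraries, so the check says nothing about replicates. Alternatives were 18 planned settings and 2 chosen after seeing the data. Scripts ran in Python 3.11.15 with pandas 2.3.3, numpy 2.4.6 and, for plots, matplotlib 3.10.9.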

Additional observations from a re-analysis of the deposited data

Results flagged for a closer look

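Each gene below was past 2.5-fold in one direction at day 0 and past it in the other direction at day 2, with at least 100 reads in the higher library on both days; the difference between the days was not tested. Of these 21 genes, 18 were lower in Ad-Cre cells at day 0 and higher at day 2. Lower genes were more numerous to begin with: 268 lower and 143 higher genes had at least 100 reads at day 0. Of all 11313 compared genes, 8.92% were past 2.5-fold higher and 8.77% past it lower at day 2, without a minimum of reads. *Tmem119*, a membrane protein of osteoblasts and microglia, had a day 0 log2 ratio of −3.24 (1025 Ad-GFP reads and 123 Ad-Cre reads), with 196 and 838 reads at day 2. The secreted protease *Htra1* had −2.70, the mesenchymal TF *Osr2* −2.57 and the sodium pump subunit *Atp1b1* −2.35. Values between −2.16 and −1.64 were those of *Lsp1* (−2.16), *C430049B03Rik* (−2.10), *Cacna1a* (−1.84), *Rab3il1* (−1.74), *Gas7* (−1.72), *Gpr153* (−1.66) and *Ptn* (−1.64), the last a secreted growth factor with 39031 and 14215 reads at day 0 and 3084 and 10048 at day 2. The smallest were those of *Hic1* (−1.55), *Tppp3* (−1.53), *Fam131b* (−1.49), *Emb* (−1.45), *Vegfd* (−1.41), *Mir675* (−1.41) and *S100a6* (−1.35). *Mir675* lies within a longer host transcript, so its reads may be those of the host. In the other direction, *Col18a1* (1.56), *Tigar* (1.40) and the basement membrane collagen *Col15a1* (1.35, 8025 and 1174 reads at day 2) were higher at day 0 and lower at day 2.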

How the results depend on the processing

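The counts of 207 higher and 415 lower genes stayed within 1.5 times, and the shares of day 0 genes that differed the same way at day 2 within their binomial intervals, in 58 of 80 recomputed values, among them all scalings (TMM factors, median of ratios, sum of counts), thinning to equal depth and the division by the length trend. The counts moved to 354 and 633 at a 2-fold cutoff, 89 and 220 at 4-fold, 1205 and 1750 with no RPKM threshold, 101 and 203 with a pseudocount of 1 RPKM, 105 and 250 where the interval had to lie past the cutoff, and, an alternative chosen after seeing the data, 137 and 256 among genes above 1 RPKM at day 2. With the threshold in Ad-GFP cells alone, 105 genes were higher, since genes low in Ad-GFP cells drop out, and with at least 100 reads 268 were lower. The share of higher genes also higher at day 2, 56.0%, was 38.8% with no threshold, 38.2% at 4-fold, 38.6% with the pseudocount, 62.9% with 100 reads and 65.7% with the interval. For lower genes, 24.3%, it was 19.5% at 4-fold, 15.3% with the pseudocount and 29.6% with the interval. Of the list medians, that of preadipocyte markers was −0.142 and that of collagens 0.508 with the pseudocount, and that of smooth muscle markers 1.13 after division by length and GC trends. No called value of a named gene changed sign. Of 117 named genes past the cutoff, 117 remained past it under each scaling, 82 with the pseudocount and 116 after division by length and GC trends, where *Fgfr2* fell within it; GC content was available for 89.4% of genes. No paired analysis was possible because each condition has 1 library, and no library could be left out. The causes of these changes were not tested beyond the alternatives' own construction. Depth limits genes near 1 RPKM: 16 higher and 22 lower genes had no read in the other library.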
